A study of Mus musculus with 6 samples.

Results

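The genes described here are the ephrins, semaphorins and their receptors, the guidance cues that let neighbouring cells attract or repel each other. They were chosen by gene symbol (Epha, Ephb, Efna, Efnb, Sema3 to Sema7, Plxna to Plxnd, Nrp1 and Nrp2), and 52 of the 18193 genes measured carried such a name. The series compared mouse embryonic stem cells depleted of the long noncoding RNA Panct1 with cells given a control, and asked how all genes respond to the loss of this RNA. Both groups were Oct4-Gip ES cells, which carry a reporter and a drug resistance gene under regulatory sequences of Oct4, grown in medium with serum and the self-renewal cytokine LIF. The knockdown group was transfected with esiRNA against Panct1 and the control group with esiRNA against Luciferase, a gene mouse cells lack. esiRNA is a pool of short double-stranded RNAs made by enzymatic digestion of a longer one. In both groups 60000 cells received 800 ng of esiRNA and RNA was taken 72 hours later, with 3 Affymetrix Mouse430 version 2 arrays per group. Whether the replicates were grown as separate cultures is not given in the labels, so p-values reflect the spread among these arrays alone, which may be technical. The probe annotation available lists no set for Panct1, so its depletion was not assessed.

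Eph receptors are receptor tyrosine kinases, and their ligands, the ephrins, are tied to the membrane of the neighbouring cell, ephrin-A proteins by a lipid anchor and ephrin-B proteins by a transmembrane segment that can itself signal. Class 3 semaphorins are secreted and act through neuropilins, which bind the ligand, and plexins, which carry the signal to small GTPases; Sema3e is known to bind Plxnd1 without a neuropilin. The other semaphorin classes are mostly membrane-bound and bind plexins directly. In the early embryo such cues sort cells at tissue boundaries and guide vessels and axons.

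All values are log2 RMA signals, a summary of the brightness of the probes of a set, and a difference is knockdown minus control on that scale, so that a difference of 1 is a doubling of signal. Signals of different genes are not comparable as amounts of RNA. Each gene was read from its brightest probe set, and "rose" and "fell" are used for an adjusted p under 0.05 in limma over all genes. Array medians lay between 6.07 and 6.09, and arrays correlated at 0.997 to 0.998 within a group and at 0.991 to 0.993 between groups. The 9 embryonic stem cell markers listed (Pou5f1, Nanog, Sox2, Zfp42, Esrrb, Klf4, Tdgf1, Utf1 and Dppa5a) had mean signals of at least 10.20 in both groups. Of these, 5 fell and 0 rose, and their summed signal went from 115.02 to 115.92 in controls to 113.73 to 113.86 in knockdown. Of 10 trophectoderm markers 8 rose and 0 fell, with a summed signal of 75.16 to 76.06 in controls and 87.19 to 87.37 in knockdown. The largest rises were those of the keratins Krt19 (2.40), Krt8 (2.28), Krt18 (2.22) and Krt7 (1.93). Tfap2c rose by 1.00, Gata3 and Cdx2 by 0.77 each and Eomes by 0.49. Hand1 and Elf5 were not called, and Elf5 lay below the arrays' mean lower quartile (4.67) in both groups. Over all genes 12.9% rose and 11.3% fell. Among the markers measured of other lineages, 1 of 8 rose and 2 fell for primitive endoderm, 2 of 6 rose and 2 fell for neural cells, 2 of 4 rose for mesoderm (1 of them, Eomes, is also on the trophectoderm list), 2 of 7 rose for fibroblast feeders, and 1 of 5 rose and 1 fell for endothelium. The part of these markers' cell types in the results below was not tested, and in these bulk samples a change in the share of a cell type and a change in RNA per cell cannot be told apart.

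Of the 52 guidance genes, 11 rose, 4 fell and 37 were not called. Over all genes 24.2% were called (12.9% rose and 11.3% fell), beside 28.8% of the guidance genes, so the number of guidance genes called lay near the background. The median difference was 0.06 for the guidance genes and -0.02 for all genes. The genes that rose were the receptors Epha1, Ephb1 and Ephb3, the ephrins Efna5 and Efnb1, the semaphorins Sema3c, Sema3e and Sema4c, the plexins Plxnb2 and Plxnd1, and the neuropilin Nrp2. The genes that fell were the receptor Epha4 and the semaphorins Sema4a, Sema5b and Sema6b. Only 4 differences reached 2-fold, those of Sema3c, Efna5, Sema3e and Epha1, and 9 were under 1.5-fold. The arrays of knockdown and control were apart for all 15 called genes, as they were for 38.3% of all genes and 38.5% of the guidance genes.

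**Figure D1:**
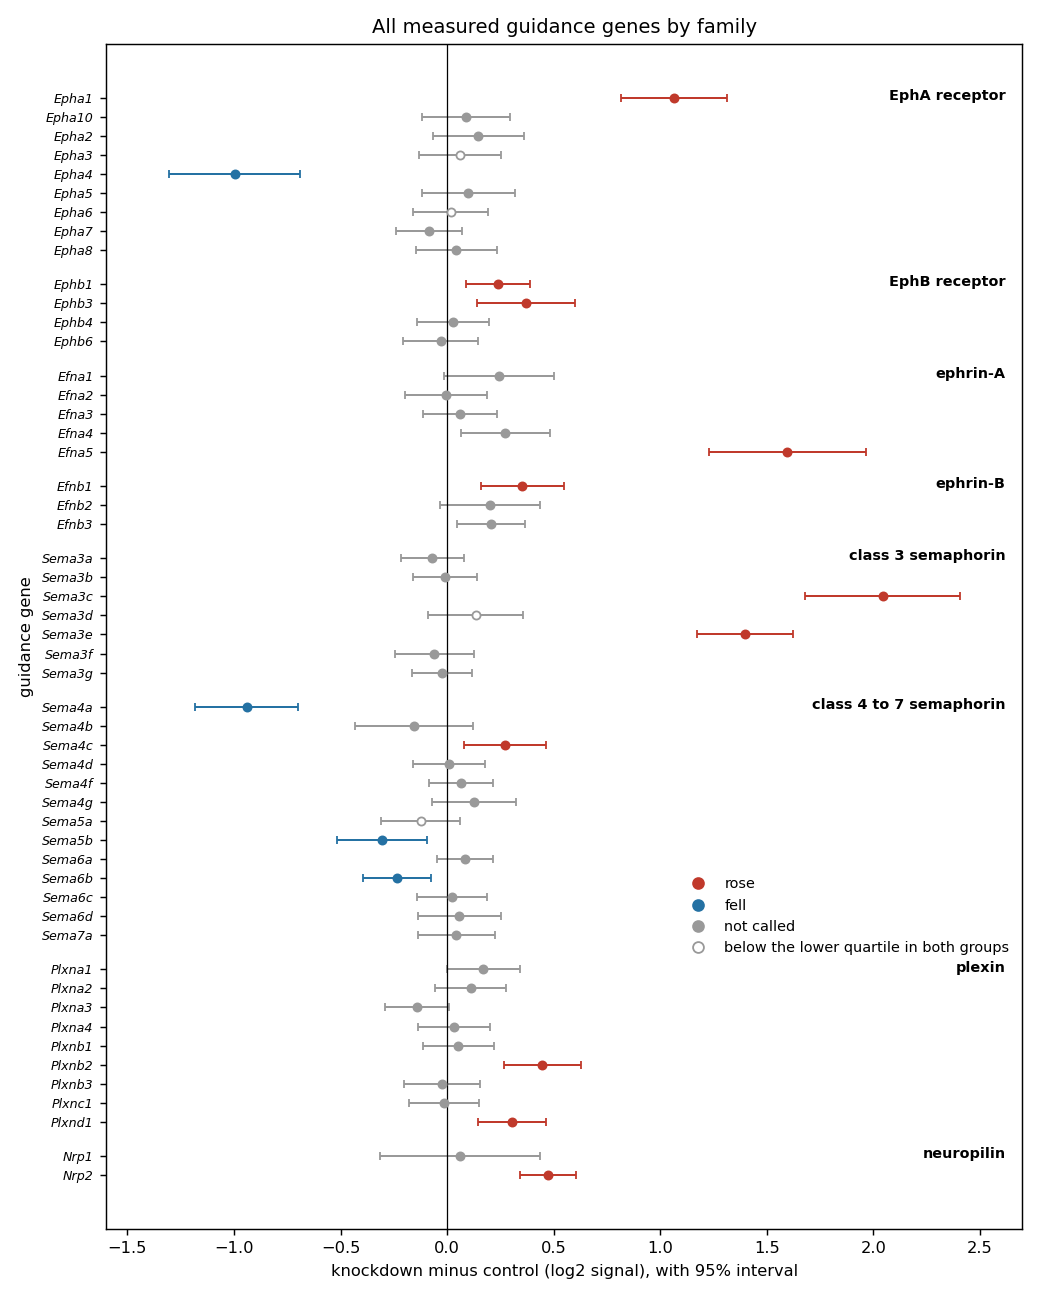
Difference between knockdown and control (log2 signal, x axis) for each of the 52 guidance genes (y axis, by family), with the 95% interval from limma. Red genes rose, blue genes fell and grey genes were not called; open points mark the 4 genes below the arrays' lower quartile in both groups, and the intervals of Sema3c, Efna5 and Sema3e lie farthest to the right.

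The regulatory sequence just before the start of 7 of the called genes is shown because these genes carry the results described next: the class 3 semaphorins that rose with a neuropilin and a plexin that bind members of this class, and the EphA receptors and the ephrin-A with the largest differences. The sequences are the 250 bases upstream of each gene's start from RefSeq on GRCm38.p6, 5′ to 3′ on the gene's own strand. Capitals mark matches, on either strand, to any of 7 short motifs: the GC box GGGCGG, the TATA box TATAAA, the CCAAT box, the octamer ATGCAAAT, the AP-1 site TGANTCA, the TEAD site GGAATG and the E-box CACGTG.
Sema3c (chr5:17574566-17574815, plus strand): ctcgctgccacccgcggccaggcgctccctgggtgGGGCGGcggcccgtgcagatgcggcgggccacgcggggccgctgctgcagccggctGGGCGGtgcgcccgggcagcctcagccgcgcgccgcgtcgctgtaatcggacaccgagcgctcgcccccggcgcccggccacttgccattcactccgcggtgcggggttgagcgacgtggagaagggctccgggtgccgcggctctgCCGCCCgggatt
Sema3e (chr5:14025026-14025275, plus strand): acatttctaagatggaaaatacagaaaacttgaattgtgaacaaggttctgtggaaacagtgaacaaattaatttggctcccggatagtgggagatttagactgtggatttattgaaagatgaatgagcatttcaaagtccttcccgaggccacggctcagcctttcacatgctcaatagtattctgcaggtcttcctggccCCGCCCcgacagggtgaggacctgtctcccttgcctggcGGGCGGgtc
Nrp2 (chr1:62703067-62703316, plus strand): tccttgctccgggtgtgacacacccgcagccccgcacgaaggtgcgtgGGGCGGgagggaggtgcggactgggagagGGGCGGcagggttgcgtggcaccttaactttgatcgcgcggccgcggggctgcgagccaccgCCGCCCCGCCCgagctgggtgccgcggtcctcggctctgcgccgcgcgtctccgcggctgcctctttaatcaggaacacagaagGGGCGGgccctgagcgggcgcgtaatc
Plxnd1 (chr6:115995006-115995255, minus strand): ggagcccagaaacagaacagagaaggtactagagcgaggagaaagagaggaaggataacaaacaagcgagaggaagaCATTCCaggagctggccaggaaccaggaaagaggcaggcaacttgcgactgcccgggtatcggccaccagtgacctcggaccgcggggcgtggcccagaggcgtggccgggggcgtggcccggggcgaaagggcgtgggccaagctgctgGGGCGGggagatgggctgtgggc
Efna5 (chr17:62881318-62881567, minus strand): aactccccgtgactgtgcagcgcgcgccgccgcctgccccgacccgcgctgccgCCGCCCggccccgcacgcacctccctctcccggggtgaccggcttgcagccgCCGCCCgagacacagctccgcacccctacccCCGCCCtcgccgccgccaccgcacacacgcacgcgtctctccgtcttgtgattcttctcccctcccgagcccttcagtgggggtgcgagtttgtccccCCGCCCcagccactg
Epha1 (chr6:42373269-42373518, minus strand): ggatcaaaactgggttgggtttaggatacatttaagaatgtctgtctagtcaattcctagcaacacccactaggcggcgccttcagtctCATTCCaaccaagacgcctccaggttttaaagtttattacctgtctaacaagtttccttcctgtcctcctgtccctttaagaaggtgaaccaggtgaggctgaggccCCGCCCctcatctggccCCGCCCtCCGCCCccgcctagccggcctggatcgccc
Epha4 (chr1:77515089-77515338, minus strand): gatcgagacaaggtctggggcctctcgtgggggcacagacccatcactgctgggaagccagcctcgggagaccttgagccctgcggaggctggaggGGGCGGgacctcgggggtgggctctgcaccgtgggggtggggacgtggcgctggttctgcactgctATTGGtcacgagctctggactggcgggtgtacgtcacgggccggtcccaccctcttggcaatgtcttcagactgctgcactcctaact

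GC boxes were found in all 7 windows, from 1 in Plxnd1 and Epha4 to 5 in Nrp2, where 2 of them overlap. Over the 60 windows that RefSeq lists for 46 of the guidance genes, 76.7% held a GC box, against 32.7% of all 32851 promoter windows of this length, which include those of noncoding genes. The TEAD motif was in the windows of Plxnd1 and Epha1, in 11.7% of the guidance windows and in 12.6% of all windows. A CCAAT box was present in Epha4 alone of the 7, and in 30.0% of the guidance windows and 33.8% of all. No octamer, TATA box, AP-1 or E-box match was found in the 7. Their shares were 0%, 1.67%, 5.0% and 5.0% over the guidance windows and 1.60%, 12.4%, 6.75% and 6.02% over all windows. The windows also differed in base composition: Sema3c had 78.4% G and C with 39 CpG dinucleotides, whereas Sema3e, which lies on the same chromosome, had 48.0% with 7. The median G and C content was 64.4% for windows of called guidance genes, 64.0% for those of the other guidance genes and 64.2% for both together, against 52.4% for all windows. The part of this base composition in the share of windows with a GC box was not tested. A match describes only the letters in this window and is no evidence of binding.

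Among the secreted class 3 semaphorins, which act on cells at a distance, 2 of 7 rose and 0 fell. Sema3c, known for its part in heart outflow tract and vessel development, had control signals of 5.40, 5.69 and 5.68 and knockdown signals of 7.24, 7.77 and 7.89. Every knockdown array exceeded every control array by far more than the spread within a group. The difference was 2.04 (SE 0.16, 95% interval 1.68 to 2.41; limma adjusted p = 4.83e-05), a 4.12-fold rise and the largest among the guidance genes in their brightest probe sets; with the mean of each gene's probe sets it was 1.20, below the 1.32 of Sema3e.

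Sema3e, a ligand that repels growing vessels and axons, read 7.68, 7.84 and 8.09 in controls and 9.24, 9.29 and 9.27 in knockdown. The knockdown arrays were close together (SD 0.03) and lay clear of the controls (SD 0.21). The rise was 1.40 (SE 0.10; 2.63-fold; limma adjusted p = 2.91e-05). The other members of the class were flat: Sema3a, Sema3b, Sema3d, Sema3f and Sema3g had differences from -0.07 to 0.13, none past the threshold. Of these, Sema3f, a ligand of Nrp2, read 9.90 in controls and 9.84 in knockdown (95% interval of the difference -0.24 to 0.12). This bright set is of a type that can cross-hybridise. The gene's other sets were dimmer, at 6.49 and 5.37 in controls and 6.58 and 5.29 in knockdown, and did not pass. Sema3d was below the lower quartile in both groups.

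Of the receptor components for secreted semaphorins, Nrp2 and Plxnd1 rose. Nrp2, a co-receptor for class 3 semaphorins and for VEGF-C, gave 9.66, 9.68 and 9.69 in controls and 10.17, 10.12 and 10.16 in knockdown. The groups did not overlap, and the difference of 0.47 had the lowest SE of any guidance gene (0.06; limma adjusted p = 5.12e-04). Nrp1, the other neuropilin, was scattered, with 5.37, 5.27 and 5.46 in controls and 5.85, 5.34 and 5.09 in knockdown. Its groups overlapped, and its interval ran from -0.32 to 0.44. Plxnd1, the receptor for Sema3e, moved from 5.85, 5.94 and 6.04 to 6.30, 6.24 and 6.20. The groups did not overlap, but the rise of 0.30 (SE 0.07; limma adjusted p = 0.0136) was modest, and without Luciferase control replicate 1 it was 0.26 and no longer passed (adjusted p = 0.0588).

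Of the 9 plexins 2 rose and 0 fell. Plxnb2, which is the receptor of Sema4c and is needed for neural tube closure, read 8.37, 8.31 and 8.37 in controls against 8.65, 8.92 and 8.82 in knockdown. All knockdown arrays were higher, and the rise of 0.45 (SE 0.08; limma adjusted p = 0.00353) was the largest among the plexins. The plexin-A genes, which pair with neuropilins, had differences of 0.17 (Plxna1), 0.11 (Plxna2), -0.14 (Plxna3) and 0.03 (Plxna4). None of these passed, although the arrays did not overlap for Plxna1 and Plxna3. Plxnb1, Plxnb3 and Plxnc1 differed by 0.05, -0.02 and -0.01 in their brightest sets.

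**Figure D2:**
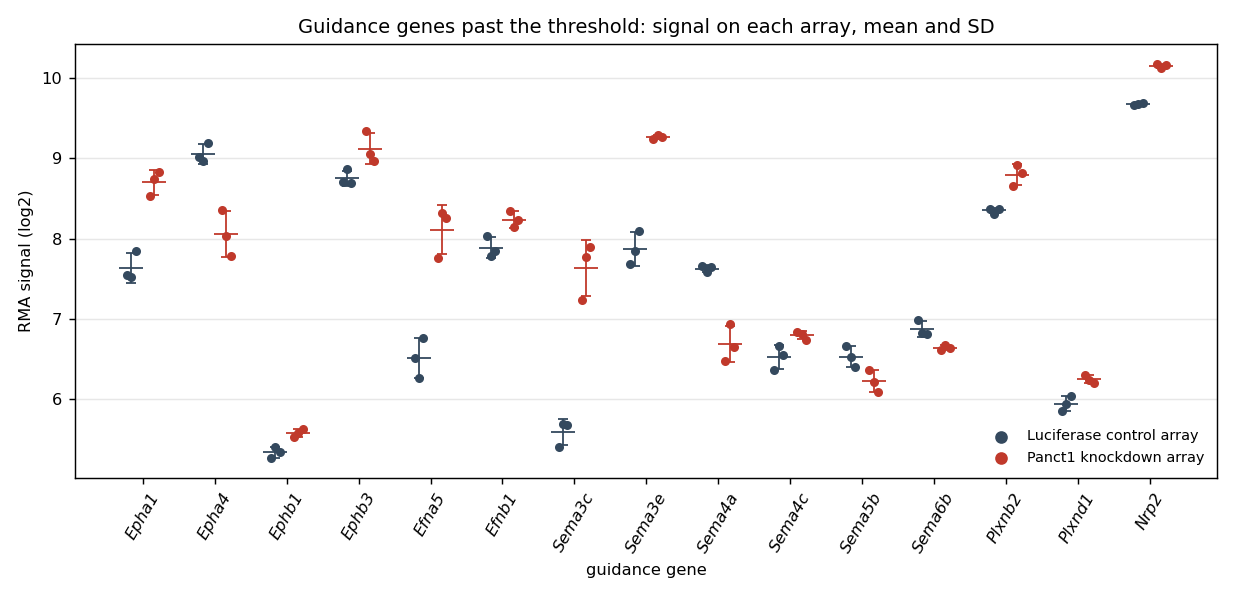
Log2 RMA signal (y axis) of the 15 called guidance genes (x axis) on each of the 3 control arrays (dark) and 3 knockdown arrays (red), with group mean and SD. The groups are apart for every gene shown, widely for Sema3c, Efna5, Sema3e, Epha1, Epha4 and Sema4a and narrowly, by at most 0.14, for Ephb1, Ephb3, Efnb1, Sema4c, Sema5b and Sema6b.

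In the membrane-bound semaphorins of classes 4 to 7, 1 of 13 rose and 3 fell. Sema4a, known as a co-stimulatory ligand of immune cells and a ligand of plexins, fell from 7.66, 7.58 and 7.64 to 6.48, 6.93 and 6.65. Controls were tight and all knockdown arrays lay below them. It fell by 0.94 (SE 0.11; limma adjusted p = 3.30e-04).

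The other 3 called genes of these classes moved little. Sema4c, the ligand of Plxnb2, went from 6.36, 6.66 and 6.55 to 6.84, 6.81 and 6.74, a rise of 0.27 (limma adjusted p = 0.0452). Sema5b, a semaphorin with thrombospondin repeats, went from 6.66, 6.53 and 6.40 to 6.36, 6.22 and 6.09, and fell by 0.31 (limma adjusted p = 0.0414). Sema6b, a ligand of plexin-A receptors, went from 6.99, 6.82 and 6.81 to 6.61, 6.67 and 6.64, and fell by 0.23 (limma adjusted p = 0.0408). For each of these 3 genes the gap between the groups, at most 0.14, was smaller than the range of the control arrays. All 3 calls were lost without Luciferase control replicate 1 (limma adjusted p = 0.146, 0.145 and 0.146), and without Panct1 knockdown replicate 2 (0.120, 0.103 and 0.0888) or 3 (0.0654, 0.122 and 0.0872). The calls for Sema4c and Sema6b were also lost without knockdown replicate 1 (0.108 and 0.0963) and control replicate 3 (0.0856 and 0.0520), and those for Sema5b and Sema6b without control replicate 2 (0.0950 and 0.0564). The 9 semaphorins of these classes that were not called had differences from -0.15 (Sema4b) to 0.13 (Sema4g).

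Of the 13 Eph receptors measured, 3 rose and 1 fell; Ephb2 is not analysed here. Epha1, an epithelial member of the family, had control signals of 7.54, 7.52 and 7.85 and knockdown signals of 8.53, 8.74 and 8.83. The groups were well apart, with a rise of 1.06 (SE 0.11; 2.09-fold; limma adjusted p = 2.03e-04). Epha4, which binds ephrins of both classes and steers motor and cortical axons, went the other way, from 9.01, 8.96 and 9.19 to 8.36, 8.03 and 7.78. It fell by 1.00 (SE 0.14; limma adjusted p = 8.82e-04), and its knockdown arrays were more scattered (SD 0.29) than its controls (SD 0.12). Epha2, a receptor of ephrin-A1, read 9.82, 9.79 and 10.07 in controls and 9.97, 10.17 and 9.98 in knockdown, with overlap and a difference of 0.15 (95% interval -0.06 to 0.36; limma adjusted p = 0.315).

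The EphB receptors that rose did so by less. Ephb3, a receptor that positions cells in the intestinal crypt, read 8.70, 8.86 and 8.69 in controls and 9.34, 9.05 and 8.97 in knockdown, a rise of 0.37 (SE 0.10; limma adjusted p = 0.0285). Ephb1, which steers retinal axons at the midline, read 5.27, 5.41 and 5.34 against 5.53, 5.58 and 5.63, a rise of 0.24 (SE 0.07; limma adjusted p = 0.0284). The gap between the groups was 0.11 for Ephb3 and 0.12 for Ephb1, less than the range of their control arrays. The call for Ephb3 was lost without knockdown replicate 1 (limma adjusted p = 0.0552) or control replicate 1 (0.0940) or 3 (0.0866), and that for Ephb1 without knockdown replicate 2 (0.0865) or 3 (0.0826) or control replicate 1 (0.110) or 3 (0.0694). Ephb4 and the kinase-inactive Ephb6 differed by 0.03 and -0.03. The remaining EphA receptors, Epha3, Epha5, Epha6, Epha7, Epha8 and Epha10, had differences from -0.09 to 0.10 in their brightest sets, with Epha3 and Epha6 below the lower quartile in both groups.

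Of the 8 ephrins 2 rose and 0 fell. Efna5, a ligand for EphA receptors that sets up topographic maps of axons, read 6.51, 6.27 and 6.76 in controls and 7.76, 8.32 and 8.25 in knockdown. The lowest knockdown array lay a full unit above the highest control array. Its rise of 1.60 (SE 0.16, 95% interval 1.23 to 1.97; limma adjusted p = 1.91e-04) corresponds to 3.02-fold in the brightest probe set, and with the mean of its probe sets it was 0.80. Efnb1, an X-linked ephrin that sorts cells at boundaries, moved from 8.03, 7.78 and 7.84 to 8.34, 8.14 and 8.23. That rise of 0.35 (SE 0.09; limma adjusted p = 0.0165) was lost as a call without control replicate 2 (0.0577) or 3 (0.0544).

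Some ephrins differed by 0.20 or more without passing. Efna4 and Efnb3 differed by 0.27 and 0.21 with arrays that did not overlap (limma adjusted p = 0.0630 and 0.0654). Efna1 and Efnb2, the ligand that marks arteries, differed by 0.24 and 0.20 with arrays that did overlap (limma adjusted p = 0.165 and 0.203). For Efna2 and Efna3 the differences were -0.01 and 0.06. The median difference over the 8 ephrins was 0.22, over the 13 Eph receptors 0.06, over the 20 semaphorins 0.02 and over the 9 plexins 0.05. Differences between these families were not tested.

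Several genes are read by more than 1 probe set, and these did not always move together. Of the 52 guidance genes 36 had several probe sets, and p-values for single sets were adjusted over all 45037 probe sets. Sema3e rose in all 4 of its sets, by 0.92 to 1.56, and Sema4a fell in both, by 0.94 and by 0.53. For Epha4 4 of 5 sets fell; the fifth and dimmest differed by -0.40 and did not pass (limma adjusted p = 0.154). Epha1 rose in 2 of 3 sets, by 1.06 and 0.45, Efnb1 in 2 of 3, by 0.35 and 0.46, and Nrp2 in 2 of 4, by 0.47 and 0.28.

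For the 2 largest rises in brightest sets, those of Sema3c and Efna5, 1 probe set passed and the other did not. The second set of Sema3c read 5.61, 5.54 and 5.51 in controls and 5.70, 6.11 and 5.89 in knockdown. It differed by 0.35 with no overlap but did not pass (limma adjusted p = 0.0568). The second set of Efna5 stayed at the arrays' lower quartile, with 4.66, 4.69 and 4.65 in controls and 4.59, 4.67 and 4.72 in knockdown, a difference of -0.01. With the mean of each gene's probe sets in place of the brightest, the rises were 1.32 for Sema3e, then the largest, 1.20 for Sema3c, 0.80 for Efna5 and 0.54 for Epha1, all still past the threshold, and 0.25 for Nrp2, which no longer passed (limma adjusted p = 0.0567). Sema5b had 2 sets that differed by -0.31 and -0.30, neither past the threshold over all probe sets.

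In 4 genes that were not called, a set other than the brightest rose; they are named here after their values were seen. For Epha7, a receptor of the developing brain, the brightest set read 5.86, 5.82 and 5.74 in controls and 5.73, 5.64 and 5.79 in knockdown. Another set read 5.21, 5.18 and 5.38 in controls and 6.07, 6.28 and 6.09 in knockdown, a rise of 0.89 (limma adjusted p = 2.99e-04). The remaining sets of the gene's 4 differed by 0.32 and -0.05 without passing (limma adjusted p = 0.166 and 0.821). Of the 2 sets whose arrays are given, the first had overlapping groups and the second had groups well apart. The second was the dimmer in controls (mean 5.26 against 5.81) and the brighter in knockdown (6.15 against 5.72). In the same way a dimmer set rose by 0.47 for Plxnb1 (adjusted p = 0.0285), by 0.55 for Sema6a (0.0373) and by 0.40 for Sema5a (0.0456), the last from a signal below the lower quartile. No guidance gene had probe sets past the threshold in both directions.

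**Figure D3:**
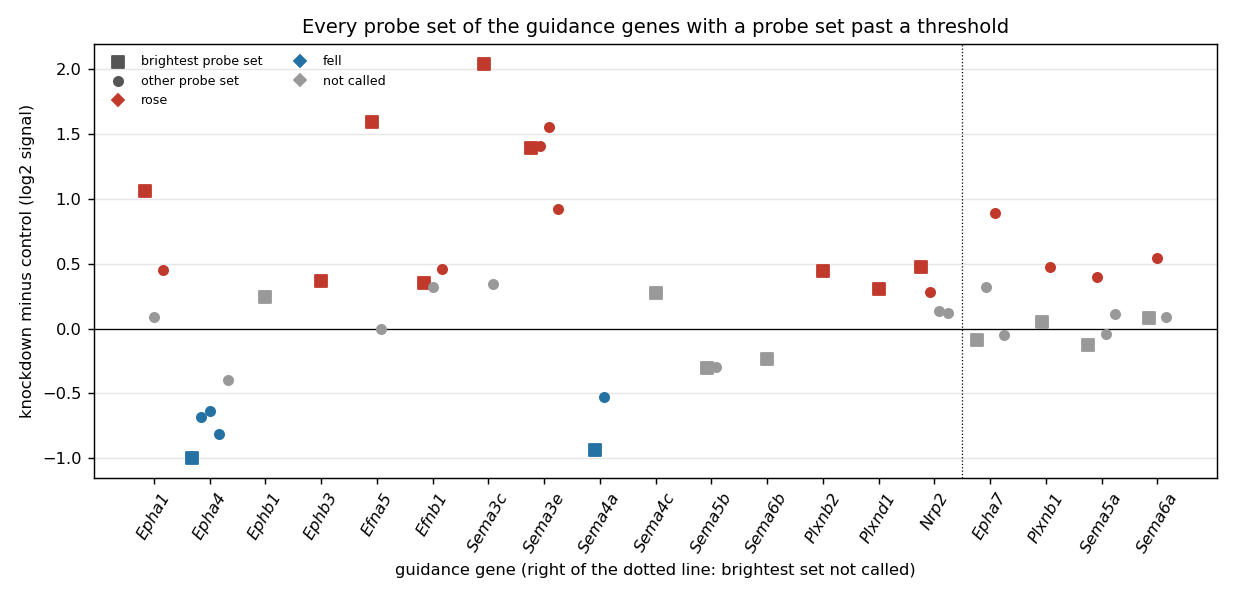
Difference between knockdown and control (log2 signal, y axis) for every probe set of the 15 called guidance genes and, right of the dotted line, of the 4 genes in which only a set other than the brightest rose. Squares are brightest sets and circles other sets; colour gives the call adjusted over all probe sets, under which Ephb1, Sema4c, Sema5b and Sema6b are grey, and the sets of Sema3c, Efna5 and Epha7 lie far apart.

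Inside the cell, Eph, ephrin, plexin and neuropilin signals are relayed by exchange factors, adaptors, kinases and PDZ proteins that act on small GTPases and the cytoskeleton. A list of 60 genes held such effectors and also the receptors Met and Erbb2, which associate with plexin-B proteins, and the sheddase Adam10. The list was chosen with earlier results of these data known. Of its genes 58 were measured, and 24 rose and 8 fell (41.4% and 13.8%), with a median difference of 0.13. Over all genes 12.9% rose and 11.3% fell. This list held brighter genes than the whole: among the 9102 genes at or above the median signal 34.9% were called, and of 46 effectors there 20 rose and 7 fell. The 4 with the smallest p all rose. Grip1, a PDZ adaptor that binds ephrin-B tails, read 6.03 ± 0.09 (SD, n = 3) in controls and 7.32 ± 0.06 in knockdown, a rise of 1.29 (limma adjusted p = 8.72e-06). Arhgef16, an exchange factor of the ephexin family that works with Epha2, rose by 0.95 from 7.96 ± 0.03 to 8.91 ± 0.03 (limma adjusted p = 1.47e-05). Met, the HGF receptor, rose by 1.38 from 6.13 ± 0.12 to 7.50 ± 0.15 (limma adjusted p = 2.36e-05). Farp1, an exchange factor related to the plexin-A partner Farp2, rose by 1.14 from 7.53 ± 0.17 to 8.67 ± 0.09 (limma adjusted p = 6.04e-05). With the mean of each gene's probe sets the rises of Met and Farp1 were 0.82 and 0.55, both still past the threshold.

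The following effectors are named after their values were seen. The collapsin response mediator proteins, cytoskeletal proteins first found downstream of a class 3 semaphorin, did not move together: Dpysl2 rose by 0.76, Crmp1 fell by 0.77 and Dpysl3 fell by 0.70, while Dpysl4 at 0.26 and Dpysl5 at 0.02 did not pass. In the ephexin family Arhgef16 rose as above, Arhgef15 fell by 0.52 and Ngef differed by 0.06. Of the kinases of the Src family that act downstream of Eph receptors, Fyn rose by 0.49 and Src by 0.35, and Yes1 fell by 0.37. With the mean of probe sets Dpysl2 rose by 0.34 and Yes1 fell by 0.23. The call for Src was lost without knockdown replicate 2 (limma adjusted p = 0.0766) or 3 (0.0534) and without cross-hybridising probe sets (0.0658), and that for Yes1 without knockdown replicate 3 (0.0887) or control replicate 1 (0.0765) or 3 (0.0806). The R-Ras proteins on which plexins are described to act as GTPase-activating proteins rose, Rras2 by 0.69 and Rras by 0.48, the latter not past the threshold without knockdown replicate 2 or 3 or control replicate 1 or 3 (limma adjusted p = 0.0506 to 0.0773). The sheddase Adam10, which cuts ephrins, differed by 0.12 (limma adjusted p = 0.333).

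Other guidance families served as a comparison outside the Eph and semaphorin systems. Of 23 netrin, slit and RGM family genes 4 rose and 2 fell (17.4% and 8.70%), with a median difference of -0.01. Over all genes the shares were 12.9% and 11.3%. Of the 7 family genes at or above the median signal of all genes, 3 rose and 1 fell. Among all genes that bright, 18.0% rose and 16.9% fell. Ntn1, the secreted netrin that attracts axons through Dcc, fell by 1.21 from 9.54 ± 0.21 (SD, n = 3) to 8.33 ± 0.12 (limma adjusted p = 1.00e-04). Slit2, a repellent, rose by 0.70 from 5.71 ± 0.16 to 6.41 ± 0.10 (limma adjusted p = 6.97e-04). Robo4, an endothelial member of the Robo family, fell by 0.57 and Rgmb, a BMP co-receptor, rose by 0.54 (limma adjusted p = 7.51e-04 and 0.00105). The remaining called genes, Slit3 and Unc5b, named after their values were seen, rose by 0.34 and 0.25. Slit3 did not pass without knockdown replicate 2 or 3 or control replicate 1 or 3 (limma adjusted p = 0.0611 to 0.0746), and Unc5b did not pass without any array other than control replicate 3 (0.103 to 0.155) or after median centring (0.0536). With the mean of probe sets Ntn1 fell by 0.62, and Slit2, Rgmb and Unc5b rose by 0.28, 0.26 and 0.39.

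**Figure D4:**
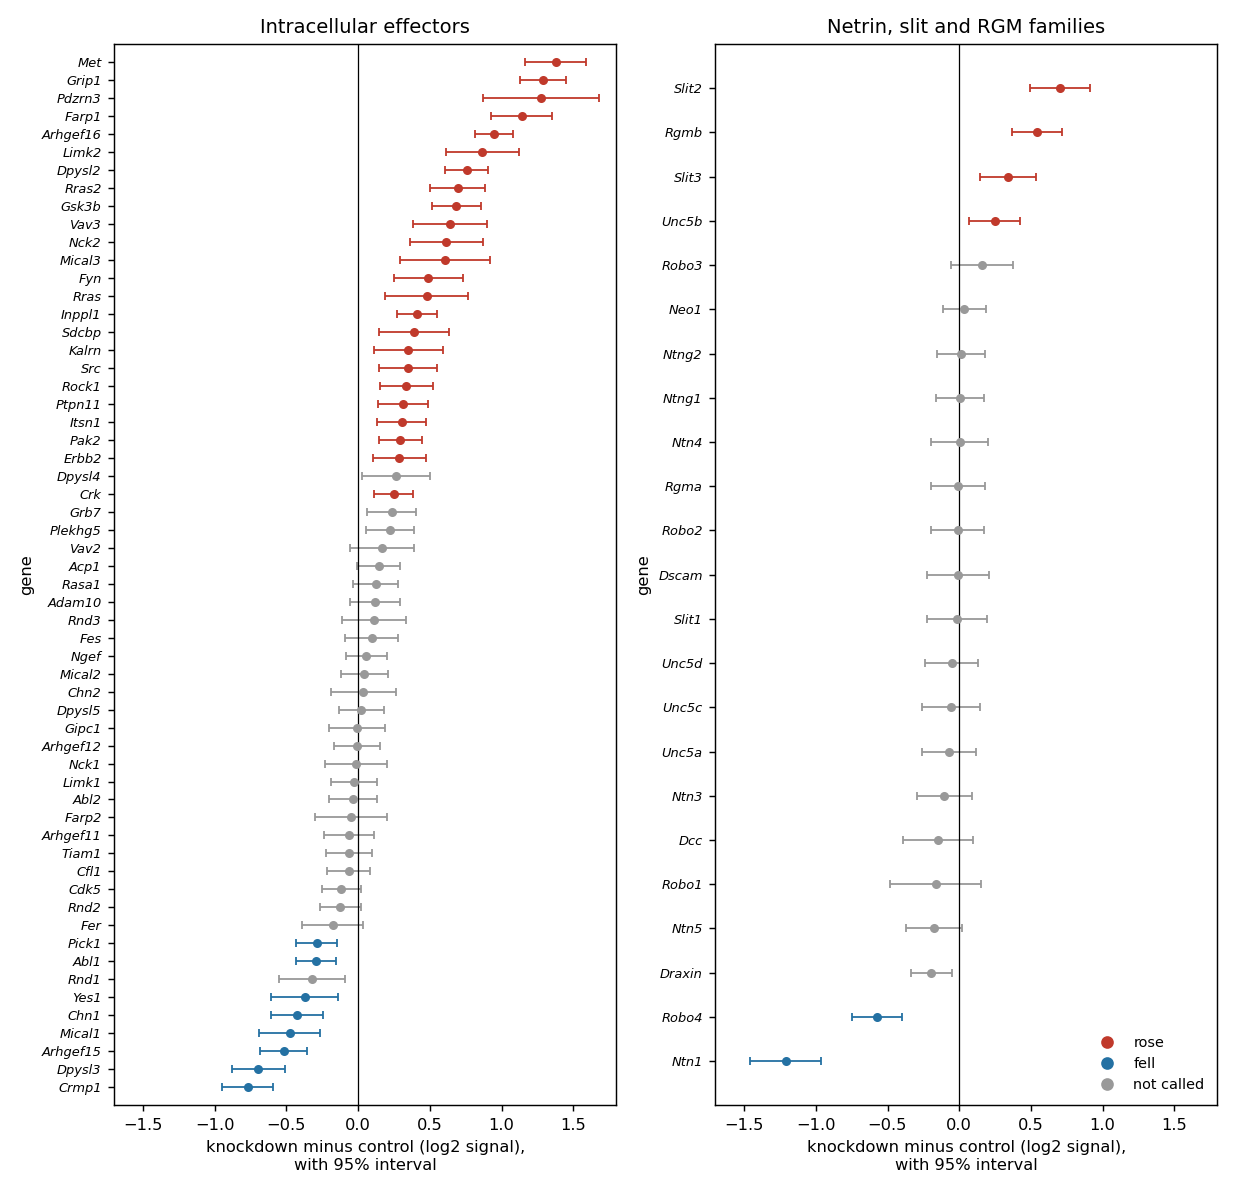
Difference between knockdown and control (log2 signal, x axis, with 95% interval) for 58 intracellular effectors (left) and 23 netrin, slit and RGM family genes (right), each sorted by difference. Red genes rose, blue genes fell and grey genes were not called; 24 effectors are red and 8 blue, and Ntn1 is the lowest gene on the right.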

How the data were processed

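Total RNA was measured on 6 Affymetrix Mouse430 version 2 arrays. The authors deposited a log2 signal for each probe set on each array, made with GCOS 1.4 and RMA per the submitters' processing notes; RMA corrects background, normalises arrays by quantiles and summarises the probes of a set, which compresses differences of dim sets. Which arrays were normalised together is not given in the sources used here. Of 45101 probe sets, 64 control sets were left out; 34945 had 1 gene symbol, 932 several and 9160 none listed, and 34741 symbols were updated through a RefSeq table. Per gene, the set with the highest mean over the 6 arrays was kept (18193 genes).

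Groups came from the titles. limma 3.58.1 (lmFit, eBayes; R 4.3.3) was fitted over all genes with group as the only term, two-sided, with Benjamini-Hochberg adjustment; the fit was tested on simulated data. No pair of arrays shared over 3.20% of values at the deposited decimals. Replicate numbers were not used as pairs. The members and lists were chosen with earlier results of these data known. Every called guidance gene is named with its arrays, and the 4 genes of each related list with the smallest p; others are named after their values were seen.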

Additional observations from a re-analysis of the deposited data

How the results depend on the processing

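Over 15 other settings, the calls for Sema3c, Sema3e, Efna5, Epha1, Epha4, Sema4a and Plxnb2 held wherever the gene was tested, those for the other 8 guidance genes were lost in at least 1, and no difference turned sign. Leaving out each array in turn gave 7 to 11 guidance genes that rose and 2 to 4 that fell, with a median difference of 0.049 to 0.083, and, of the netrin, slit and RGM genes, 2 to 3 that rose. Of all genes, 17.2% to 21.9% were called in these fits, beside 24.2% with every array kept. The lowest count of guidance genes that rose came without Luciferase control replicate 1, where the share of all genes called was also lowest (17.2%). Of the effectors 16 to 24 rose and 7 to 9 fell in these fits, with the fewest rises without Panct1 knockdown replicate 2. Adjusted over all probe sets, 9 guidance genes rose and 2 fell, beside 20% of all genes called. Without the dimmer genes, which left 21 of the 52, 8 rose, 1 fell and the median was 0.15, beside 3825 of all 9102 genes (42%) called in that setting, and 1 netrin, slit and RGM gene fell. With the mean of probe sets 13 guidance genes rose, 10 of them among the 11 named above, and 4 fell. The median was 0.076, and 23% of all genes were called. With array weights 13 rose, including the 11 named above, and 4 fell, beside 31.5% of all genes called. Same-numbered arrays of the 2 groups did not deviate together (correlations -0.19, -0.26 and -0.10). No array correlated best with its own number. Deviations were taken from group means, so negative values for some pairs force positive ones for others. The positive values therefore do not by themselves show a pairing. The highest correlations were 0.27 for knockdown 1 with control 2, 0.28 for knockdown 2 with control 3 and 0.21 for knockdown 3 with control 1. Their source was not tested. With the replicate block, 9 guidance genes rose and 3 fell, and 3496 genes were called in all; the calls for Ephb1, Sema4c and Sema6b were lost (limma adjusted p = 0.0722, 0.0756 and 0.0983). A repeated quantile normalisation lost Sema4c (0.0564), and an intensity trend with robust variance lost Ephb1 (0.0543) and Sema6b (0.0526). Of the named effector, netrin, slit and RGM genes that rose or fell, checked in this way after the data were seen, 5 lost their call in at least 1 setting and 14 did not. Array number and, for dim sets such as Epha3, Epha6, Sema3d and Sema5a, signal near background limit what could be detected.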
